A study of Mus musculus with 32 samples.

Results

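The 31 genes described here encode the mitochondrial oxidation of fatty acids, enzymes of ketone body metabolism and the proteins that supply or regulate both, 31 of the 35523 genes that the annotation holds for these livers. They were chosen by name, for their place in the pathway, with earlier results of these data known. All 31 passed the filter on low counts in every comparison (10 counts or more in 4 or more livers). Estimated counts of all transcripts of a gene were summed in each of 32 mouse livers, 1 library per liver, and set relative to library size. The livers came from WT and Nudt7-/- (KO) mice on the C57BL/6J background, males (M) and females (F), fed either a low-fat control diet (CD, 10% of kcal from fat, 0% cholesterol) or a western diet (WD, 41% of kcal from fat, 0.2% cholesterol) from 6 weeks of age until harvest between 17 and 20 weeks. This gave 8 groups of 4 livers: WT males on CD, KO males on CD, WT males on WD, KO males on WD, and the same 4 for females. The KO allele is a whole-body CRISPR/Cas9 deletion of exons 3 and 4 of Nudt7, which encodes a peroxisomal enzyme that degrades CoA and acyl-CoAs, and it descends from 1 mosaic founder made in FVB zygotes and backcrossed to C57BL/6J. The study harvested mice either fed or after a 24 h fast, and the sample labels do not say which of these states the sequenced livers were in, a limit for genes that answer to feeding.

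Long-chain fatty acids enter mitochondria as carnitine esters. Carnitine palmitoyltransferase 1 on the outer membrane is the step that malonyl-CoA inhibits, a translocase carries the acylcarnitine inward, and carnitine palmitoyltransferase 2 returns it to acyl-CoA. Each turn of β-oxidation then runs through an acyl-CoA dehydrogenase, a hydratase, a hydroxyacyl-CoA dehydrogenase and a thiolase, with electrons passed to the respiratory chain by the electron transfer flavoprotein and its dehydrogenase. Liver uses the acetyl-CoA for the tricarboxylic acid cycle or for ketone bodies, and many genes of this route are known targets of PPARα, the nuclear receptor that fatty acids activate.

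Reference sequence just upstream of a few of these genes is shown because the results turn on them: Acadm and Slc22a5 rose in WD-fed males, Pdk4 fell, and Hadha and Hadhb, the 2 subunits of 1 enzyme, face away from each other across a short gap. The sequences are those of RefSeq on GRCm38.p6, read 5′ to 3′ on the strand of the gene, and end before the gene's first annotated base, so that they hold no untranslated region. Capitals mark the GC box (GGGCGG), the nuclear receptor half-site (AGGTCA) and the CCAAT box (CCAAT), each on either strand.
Acadm (ENSMUSG00000062908.12), chr3:153944644-153944893, minus strand: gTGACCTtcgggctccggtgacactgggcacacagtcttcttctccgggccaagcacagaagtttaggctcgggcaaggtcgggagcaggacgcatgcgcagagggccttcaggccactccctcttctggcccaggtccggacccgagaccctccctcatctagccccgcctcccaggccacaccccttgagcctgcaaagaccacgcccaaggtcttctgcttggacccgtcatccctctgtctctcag
Slc22a5 (ENSMUSG00000018900.7), chr11:53891704-53891953, minus strand: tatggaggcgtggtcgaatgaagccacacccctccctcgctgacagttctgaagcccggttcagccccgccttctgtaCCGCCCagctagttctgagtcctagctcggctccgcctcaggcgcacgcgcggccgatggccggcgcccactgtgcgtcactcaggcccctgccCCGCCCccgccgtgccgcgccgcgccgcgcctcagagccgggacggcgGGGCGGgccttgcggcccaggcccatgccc
Pdk4 (ENSMUSG00000019577.6), chr6:5496310-5496528, minus strand: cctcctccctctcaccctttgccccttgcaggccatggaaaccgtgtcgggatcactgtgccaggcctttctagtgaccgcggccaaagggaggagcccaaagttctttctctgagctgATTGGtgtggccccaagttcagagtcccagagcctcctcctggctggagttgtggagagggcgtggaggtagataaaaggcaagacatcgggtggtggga
The gap between Hadha (minus strand) and Hadhb (plus strand), chr5:30155163-30155247, 85 bases, plus strand: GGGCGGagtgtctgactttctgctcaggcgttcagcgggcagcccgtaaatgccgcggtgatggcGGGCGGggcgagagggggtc
The Acadm stretch held 1 half-site at position 2 counted from its 5′ end, that of Slc22a5 held 3 GC boxes, that of Pdk4 held 1 inverted CCAAT box, and the Hadha-Hadhb gap held 2 GC boxes. Promoter windows were found for 26 of the 31 members, 28 windows in all (not for Acaa2, Acad9, Acat1, Crat and Decr1). In the 250 bases upstream of the start, GC boxes were in 14 of the 28 windows against 32.7% of 32851 windows of all genes, and the half-site was in 6 (Acadm, Acadvl, Cpt1a, Echs1, Pcca and Slc25a47) against 14%. A TATA box (TATAAA) was in none of the 28 against 12.4% of all windows. The double half-site that PPARα binds, searched as AGGNCANAGGNCA, was in none against 0.338%, and the ERR site TCAAGGTCA, which contains the half-site, was in none against 0.387%. The GC content of the 28 windows had a median of 58.8%, against 52.4% over all windows. These matches describe letters in a short window only.

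Total counts ran from 10140048 to 15825078 per liver, with a median of 13000302. Nudt7 itself separated the genotypes in each sex and diet: its level, in CPM (read counts scaled to library size with TMM factors), was 342 to 653 in WT males on CD, 60.8 to 249 in KO males on CD, 372 to 599 in WT males on WD and 41.0 to 156 in KO males on WD. In females it was 124 to 232 and 21.1 to 45.2 on CD, and 96.7 to 167 and 25.6 to 63.5 on WD, for WT and KO in that order. The mean KO against WT difference was −2.16 on the log2 scale (SE 0.217, adjusted p = 1.54e-06, edgeR quasi-likelihood test). By the same test on single pairs of groups, Nudt7 passed only in females on CD (−2.45, SE 0.271, adjusted p = 0.0159). It did not pass in males on CD (−1.77, SE 0.523, adjusted p = 0.495) or on WD (−2.55, SE 0.418, adjusted p = 0.317). Nor did it in females on WD (−1.84, SE 0.349, adjusted p = 0.316). All 9 hepatocyte markers were detected in every group, and their summed level was 54753 to 108839 CPM. Pancreatic acinar transcripts stood out in 4 livers, all female (WT on CD replicates 2 and 4, KO on CD replicate 3, WT on WD replicate 4), at 538 to 7086 CPM summed over 16 markers, with all other livers at 4.42 to 139. Skeletal muscle transcripts were over 10 times the median of all livers in 8 livers, 6 of them females on CD, and reached 762 CPM over 5 markers in KO females on CD replicate 3. Muscle expresses many of the genes described here, so counts of members called in comparisons with females on CD are also given without the livers with acinar and, separately, muscle transcripts, the latter in the model of all groups, since it left 1 liver each of WT and KO females on CD, which are assumed to vary like the other groups. In whole liver, fewer cells of a type and less RNA per cell cannot be told apart. Nothing in the labels says more of the livers than their group and number, so p-values measure the spread between these livers.

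The pathway was read at very unequal levels. Levels between genes are compared per transcript length, as TPM, which scales counts by transcript length and library. Acaa2, the mitochondrial 3-ketoacyl-CoA thiolase, was highest at a mean of 496 TPM over the 32 livers (422 to 576), followed by Etfb at 432 TPM and Etfa at 380 TPM, the 2 subunits of the electron transfer flavoprotein. Acaa2 was above Etfb in 26 of 32 livers, Etfb above Etfa in 30 and Etfa above the next gene, Slc25a47, in 28. Slc25a47, a liver-enriched carrier of the mitochondrial inner membrane, had a mean of 265 TPM and ranged from 149 to 693. In the middle of the order neighbours were not separated: Hadh (233 TPM) was below Slc25a47 in 17 of 32 livers, Acadm (200 TPM) above Acadvl (194 TPM) in 16, Etfdh (147 TPM) above Acadl (146 TPM) in 15, and Acad11 (141 TPM) above Hadha (140 TPM) in 13. Cpt1a stood eighteenth, at 110 TPM (47.4 to 220). At the lower end were Crat (34.5 TPM), Acad9 (26.6 TPM), Pdk4 (14.9 TPM), Acad10 (13.1 TPM), Slc22a5 (10.2 TPM) and Ppargc1a (2.84 TPM), the last below Slc22a5 in all 32 livers.

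**Figure D1:**
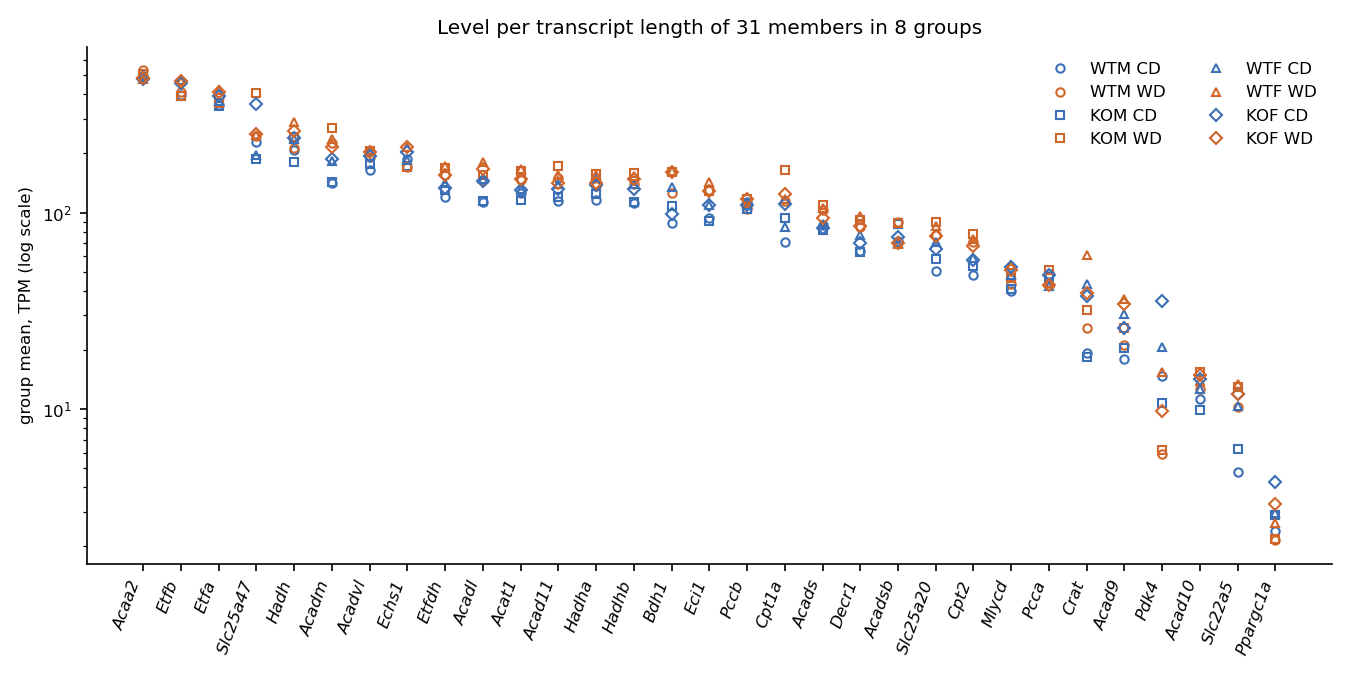
Mean level of each of the 31 genes in the 8 groups, in TPM on a log scale, with the genes ordered by their mean over all 32 livers; symbols are WT males (WTM), KO males (KOM), WT females (WTF) and KO females (KOF), blue on CD and orange on WD. Most genes keep their 8 group means close together, from Acaa2 at 496 TPM to Ppargc1a at 2.84 TPM, while Pdk4, Crat and Slc22a5 spread most.

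Hadha was close to its partner Hadhb in level and Etfa to Etfb, while Pcca was well below Pccb. The ratio of Hadha to Hadhb in TPM had group means between 0.960 and 1.11, and that of Etfa to Etfb between 0.799 and 0.943. Pcca, the α subunit of propionyl-CoA carboxylase, had group means of 0.371 to 0.462 relative to Pccb, the β subunit. Etfa was 2.14 to 2.96 times Etfdh, the flavoprotein's dehydrogenase. This ratio was 2.96 ± 0.303 (SD, n = 4) in WT males on CD, 2.51 ± 0.129 in WT males on WD, 2.68 ± 0.163 in KO males on CD and 2.14 ± 0.139 in KO males on WD. The ranges did not overlap between diets in KO males (2.54 to 2.92 against 1.95 to 2.25), while in WT males they did (2.55 to 3.27 against 2.33 to 2.62).

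Most members are read mainly through 1 annotated transcript, with a few exceptions. For Hadha, a transcript annotated as non-coding (Hadha-201, 2552 bases) was assigned 59.5% of the gene's counts, and the longer protein-coding Hadha-205 (4017 bases) 38.6%. Its share kept to group means of 56.9 to 62.3%. For Acadsb, short/branched-chain acyl-CoA dehydrogenase, a retained-intron transcript (Acadsb-207) took 70.9% of counts, with group means of 68.2 to 73.2%, so that the gene's level rests mostly on RNA not annotated as coding. Bdh1 was split 63.8% to 34.1% between Bdh1-201 and Bdh1-203, and Hadhb 66.9% to 30.7% between Hadhb-201 and Hadhb-203, all protein coding. The split between transcripts that share most of their sequence is an estimate of the quantification and was not tested between groups.

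The comparison of diets asks how the pathway's transcripts answered to a fat- and cholesterol-rich diet. In males, 15 of the 31 genes changed with the WD when the effect was averaged over both genotypes, 14 of them higher and 1, Pdk4, lower. Over all 13539 genes tested, 16.3% were called in either direction and 7.19% were called higher. The 31 were chosen with earlier results of these data known, so their share is not that of a list drawn up blind to them. The median log2 difference of the 31 members was 0.33 and that of all genes 0.001. The increases were moderate, from 1.26-fold to 1.99-fold, and covered the carnitine shuttle, part of the dehydrogenases and part of the later steps, while several of the most abundant members (Acaa2, Etfa, Etfb and Echs1) had differences of −0.16 to 0.03 on the log2 scale that did not pass the test. In females 1 of 31 was called, Bdh1, with 2.56% of all genes called, and Pdk4 was lower without passing the test.

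**Figure D2:**
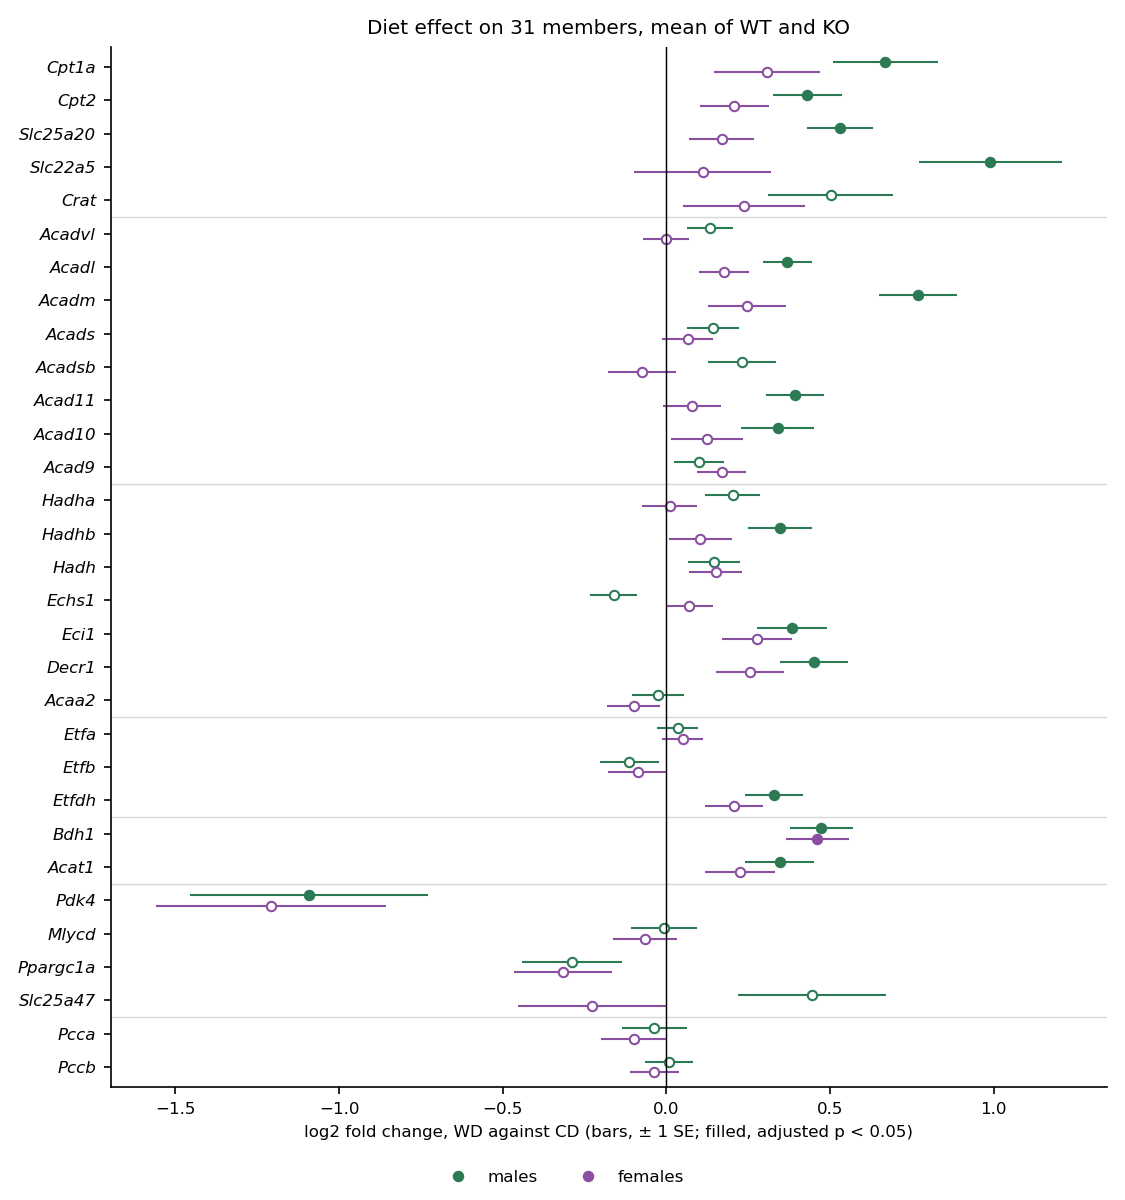
Log2 fold change of WD against CD, averaged over WT and KO mice, for the 31 genes grouped by role (rows) in males (green) and females (purple); bars are ± 1 SE and filled points passed an adjusted p of 0.05. In males 14 filled points lie to the right of 0 and Pdk4 to the left, while in females the only filled point is Bdh1.

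Of the 5 genes of the carnitine shuttle, 4 rose in WD-fed males. Slc22a5, the plasma membrane carnitine transporter, was 12.7, 9.99, 11.5 and 8.79 CPM in the 4 WT males on CD and 11.4, 30.04, 18.5 and 28.6 CPM in those on WD. In KO males it was 10.6, 13.3, 13.4 and 14.97 CPM on CD against 18.2, 22.2, 22.4 and 37.6 CPM on WD. Thus 7 of 8 WD males were above every CD male, the exception being WT on WD replicate 1. The mean difference in males was 0.99 on the log2 scale (SE 0.218, adjusted p = 0.00255), or 1.99-fold. In females Slc22a5 was already at 14.4 to 40.6 CPM on CD and at 19.9 to 30.4 CPM on WD, ranges that overlapped.

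Cpt1a, the liver form of carnitine palmitoyltransferase 1, was 308, 265, 261 and 199 CPM in WT males on CD, and 278, 409, 452 and 441 CPM on WD. KO males had 353, 233, 393 and 270 CPM on CD and 427, 543, 444 and 669 CPM on WD, without overlap. The male diet effect was 0.67 (SE 0.161, adjusted p = 0.00483). Slc25a20, the carnitine-acylcarnitine translocase, was 65.6 to 82.5 CPM in WT males on CD and 89.7 to 127 CPM on WD, and 75.0 to 85.3 CPM against 96.2 to 129 CPM in KO males. All 8 WD males were thus above all 8 CD males, and the mean difference was 0.53 (SE 0.100, adjusted p = 0.00052). Cpt2 rose by a similar step, from 82.7 ± 11.4 to 114 ± 13.5 CPM in WT males and from 84.6 ± 11.2 to 113 ± 15.4 CPM in KO males (SD, n = 4; adjusted p = 0.00499). Crat, carnitine acetyltransferase, which acts on short-chain acyl groups, had a male difference of 0.50 that did not pass (SE 0.191, adjusted p = 0.0726).

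**Figure D3:**
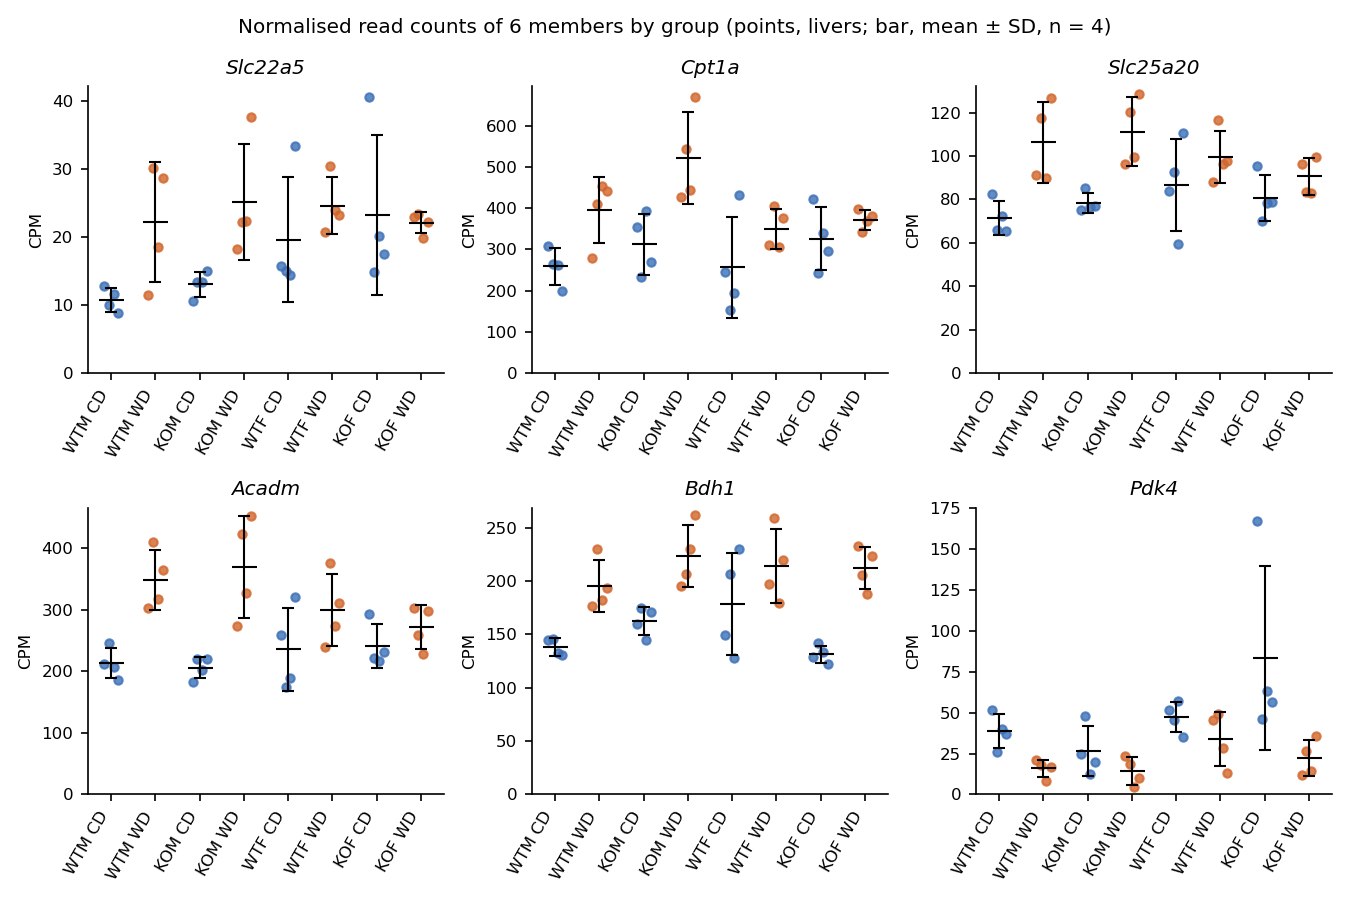
Normalised read counts (CPM, axes from 0) of Slc22a5, Cpt1a, Slc25a20, Acadm, Bdh1 and Pdk4 in each liver of the 8 groups, with the mean and SD of 4 livers as bars; blue points are CD and orange points WD. In males WD points of Slc25a20, Acadm and Bdh1 lie above the CD points of the same genotype without overlap, and for Pdk4 1 liver of KO females on CD stands at 167 CPM, over the other 3 at 46.3 to 63.1 CPM.

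Among the 8 acyl-CoA dehydrogenase genes, 4 rose in WD-fed males. Acadm, the medium-chain enzyme, gave the smallest p of all 31 genes. It was 212, 247, 208 and 187 CPM in WT males on CD and 302, 410, 318 and 365 CPM on WD, and in KO males 183, 220, 202 and 221 CPM on CD against 274, 423, 327 and 452 CPM on WD. The lowest WD male (274 CPM) was above the highest CD male (247 CPM). The mean difference was 0.77 (SE 0.119, adjusted p = 6.64e-05), or 1.70-fold. Acadl, the long-chain enzyme, rose by 0.37 (SE 0.0751, adjusted p = 0.00104), from 162 ± 13.9 to 218 ± 24.2 CPM in WT and from 164 ± 11.0 to 204 ± 26.0 CPM in KO males. Acad11, which takes long-chain and hydroxylated acyl groups, rose by 0.39 (SE 0.0894, adjusted p = 0.0029). Acad10, its paralog, rose by 0.34 (SE 0.111, adjusted p = 0.0349). That call was lost in 9 of 16 fits with 1 liver left out (adjusted p of 0.0501 to 0.0758, without WT on CD replicates 1, 2 and 4, KO on CD replicate 4, WT on WD replicates 1, 2 and 4, and KO on WD replicates 2 and 4) and with the length trend removed (adjusted p = 0.0807). KO on CD replicate 4, at 15.5 CPM, lay below the other 3 of its group at 28.8 to 29.1 CPM. The very-long-chain enzyme gene Acadvl, the short-chain Acads, the branched-chain Acadsb and Acad9, which also serves complex I assembly, had male differences of 0.10 to 0.23 that did not pass.

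In the comparisons by genotype Acadsb was also called, in WT males. Its CPM was 102, 125, 138 and 117 in WT males on CD and 182, 172, 178 and 151 on WD, which did not overlap (log2 difference 0.51, SE 0.107, adjusted p = 0.0119). In KO males it was 127, 130, 149 and 161 on CD and 111, 173, 141 and 129 on WD. The difference between the 2 diet effects, KO less WT, was −0.53 (SE 0.209, unadjusted p = 0.0169, adjusted p = 0.317), so a difference between genotypes in this response was not established. The WT call was lost with length offsets by DESeq2 (adjusted p = 0.136) and by edgeR (adjusted p = 0.166). Counts of the gene include the retained-intron transcript named above.

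Of the 7 genes of the later steps, 3 rose in males. Decr1, the 2,4-dienoyl-CoA reductase that clears double bonds of polyunsaturated fatty acids, rose by 0.45 (SE 0.103, adjusted p = 0.00302). Eci1, the enoyl-CoA isomerase for double bonds of unsaturated fatty acids, rose by 0.38 (SE 0.106, adjusted p = 0.0126). Hadhb, the thiolase subunit of the mitochondrial trifunctional protein, rose by 0.35 (SE 0.097, adjusted p = 0.0135). Its values were 178, 161, 167 and 149 CPM in WT males on CD and 181, 253, 179 and 214 CPM on WD, and 167, 151, 166 and 157 CPM against 178, 216, 193 and 243 CPM in KO males, so that within each genotype WD and CD did not overlap. Hadha, the other subunit, had a male difference of 0.20 that did not pass, and Hadh, Echs1 and Acaa2 did not pass either, with Echs1 at −0.16. Of the electron transfer flavoprotein genes, Etfdh rose by 0.33 (SE 0.0879, adjusted p = 0.01), and Etfa and Etfb gave 0.03 and −0.11.

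Both genes placed with ketone body metabolism rose in males. Bdh1, 3-hydroxybutyrate dehydrogenase, which interconverts acetoacetate and β-hydroxybutyrate, was 145, 146, 132 and 130 CPM in WT males on CD and 177, 230, 182 and 193 CPM on WD. In KO males it was 160, 174, 145 and 171 CPM on CD and 195, 207, 230 and 262 CPM on WD. All 8 WD males were above all 8 CD males, and the mean difference was 0.47 (SE 0.0965, adjusted p = 0.00108). Bdh1 was also the one member that rose in females, by 0.46 (SE 0.0964, adjusted p = 0.0061). In KO females its values were 129, 142, 133 and 122 CPM on CD and 233, 206, 188 and 223 CPM on WD, without overlap (0.68, SE 0.0959, adjusted p = 0.0293; 0.125% of all genes were called). In WT females they were 149, 206, 128 and 230 CPM on CD and 197, 259, 179 and 220 CPM on WD, which overlapped, and no member of 31 was called there (0.0785% of all genes called, 0 members and 8.46% of genes at an unadjusted p under 0.05). Without the livers with acinar transcripts, and separately without those with muscle transcripts, Bdh1 remained the single member called in the female mean. In WT females no member was called without either set. The KO female call was lost in 4 of 8 fits with 1 liver left out (adjusted p of 0.0553 to 0.124, without CD replicate 4 and WD replicates 1, 2 and 3), with the replicate block (adjusted p = 0.0675) and without the livers with muscle transcripts (0.79, SE 0.198, adjusted p = 0.49), while it held without those with acinar transcripts. Acat1, the mitochondrial acetoacetyl-CoA thiolase, rose by 0.35 in males (SE 0.106, adjusted p = 0.0249), a call lost without KO on WD replicate 2 (adjusted p = 0.0511) and with length corrections (adjusted p of 0.0541 to 0.0919).

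Pdk4 was the one member called lower in males. It encodes the pyruvate dehydrogenase kinase that shuts pyruvate out of the tricarboxylic acid cycle in fasting. WT males had 51.9, 26.2, 39.8 and 36.9 CPM on CD and 21.1, 17.7, 8.43 and 16.6 CPM on WD, without overlap. KO males had 25.04, 47.9, 12.8 and 19.9 CPM on CD and 23.7, 18.8, 4.58 and 9.86 CPM on WD, with overlap. The male mean difference was −1.09 (SE 0.364, adjusted p = 0.0415). The call was lost in 10 of 16 fits with 1 liver left out (adjusted p of 0.0528 to 0.128, without WT on CD replicates 1, 3 and 4, KO on CD replicates 1 and 2, WT on WD replicates 2, 3 and 4, and KO on WD replicates 3 and 4), without the filter on low counts (adjusted p = 0.075) and without the livers with muscle transcripts (adjusted p = 0.0986). In females Pdk4 gave −1.21 (SE 0.351, adjusted p = 0.0648), from 35.4 to 57.0 CPM in WT and 46.3 to 167 CPM in KO females on CD to 13.3 to 49.0 and 12.1 to 35.7 CPM on WD. Thus every KO female on WD was below every KO female on CD, and DESeq2 with length offsets called Pdk4 lower in KO females. Summed muscle markers were 1.42 to 762 CPM in the 8 females on CD and 0.433 to 4.37 CPM in the 8 on WD, and their part in the female Pdk4 values was not tested.

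The other regulators did not pass in the mean. Ppargc1a, the coactivator PGC-1α, had −0.29 in males and −0.32 in females (adjusted p = 0.286 in females). Mlycd, malonyl-CoA decarboxylase, which removes the inhibitor of carnitine palmitoyltransferase 1, had −0.007 and −0.07. Slc25a47 varied widely: KO males on CD had 189, 268, 138 and 162 CPM and those on WD had 323, 313, 342 and 528 CPM, without overlap (1.01, SE 0.231, adjusted p = 0.0485). WT males overlapped, at 196 to 316 CPM on CD and 189 to 366 CPM on WD. The difference of the diet effects, KO less WT, was 1.08 (SE 0.453, unadjusted p = 0.0242, adjusted p = 0.347). The KO male call was lost in 7 of 8 fits with 1 liver left out, all but that without CD replicate 2 (adjusted p of 0.053 to 0.127). It was also lost without the filter on low counts (adjusted p = 0.055), with the replicate number as a block (adjusted p = 0.0777) and in the model of all 32 livers (adjusted p = 0.0704). Pcca and Pccb, which carry the propionyl-CoA of odd-chain fatty acids onward, had male differences of −0.04 and 0.01.

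By genotype, in the same livers, 12 of 31 members were called in WT males on WD against CD, 11 higher and 1 lower, where 13.7% of all genes were called and 6.93% called higher. In KO males 4 were called, all higher (Acadm, Slc22a5, Slc25a20 and Slc25a47), where 2.6% of all genes were called and 1.64% called higher. The order of these counts depended on the test: DESeq2 with length offsets called 11 in WT and 13 in KO males, and edgeR with the replicate number as a block called 4 and 3. Without the 2 WT male livers with muscle transcripts (CD replicate 3 and WD replicate 4), in the model of all groups, 3 were called in WT males (Acadm, Acadsb and Slc25a20), against 8 in that model with all 32 livers. The medians of the 31 were 0.19 in WT and 0.33 in KO males, against 0.008 over all genes in both. At an unadjusted p under 0.05 the counts were 15 of 31 in WT and 19 of 31 in KO males, against 29.5% and 17.4% of all genes. No member differed between genotypes in its diet effect in males (0 of 31, 0.0591% of all genes called; 4 members at an unadjusted p under 0.05). In WT males Acadm, Bdh1, Acadsb and Slc25a20 were called in all 8 fits with 1 liver left out; the count fell to 5, 4, 4 and 5 without CD replicate 3, CD replicate 4, WD replicate 2 and WD replicate 4. In KO males it fell to 0 without CD replicate 1 or 3, to 1 without CD replicate 4, WD replicate 2 or WD replicate 4 and to 2 without CD replicate 2 or WD replicate 3.

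The diet effects of the 2 sexes were then compared. Set against males, the diet effect in females was lower in 26 of 31 members (above 0 in 5, against 49.0% of all genes above 0), with a median difference of −0.12 where all genes had −0.005. None of the 31 passed the test of this difference (0.244% of all genes did; 7 members and 11.8% of genes had an unadjusted p under 0.05). The smallest p belonged to Acadm (−0.52, interval of 2 SE −0.857 to −0.185, adjusted p = 0.207), Slc22a5 (−0.88, SE 0.301, adjusted p = 0.255), Slc25a20 (−0.36, SE 0.141, adjusted p = 0.318) and Acad11 (−0.31, SE 0.126, adjusted p = 0.326). Male and female effects came from separate livers.

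Beyond the 31, 46 other genes of the pathway were tested in the same fit, among them acyl-CoA synthetases, thioesterases, auxiliary enzymes and monocarboxylate transporters, a list drawn up with earlier results of these data known. In males 15 of the 46 rose and 5 fell with the WD, with a median log2 difference of 0.11. Over all genes tested, 16.3% were called in the male mean and 7.19% called higher, the shares to set beside each male mean count here. Acsf2, an acyl-CoA synthetase, rose by 0.58 (SE 0.0849, adjusted p = 3.60e-05), and Eci2, an enoyl-CoA isomerase, by 0.82 (SE 0.139, adjusted p = 0.000175). The medium-chain synthetase genes Acsm5 and Acsm3 rose by 0.58 (adjusted p = 0.000252) and 0.46 (adjusted p = 0.000556). Mmab, an adenosyltransferase for the cobalamin of the propionate route, fell by 1.09 (SE 0.204, adjusted p = 0.00061). In females 1 of the 46 was called, near the 2.56% of all genes called there. Of 24 PPARα targets outside mitochondria, 18 rose in males and 2 in females, with medians of 0.87 and 0.22. Of 9 hepatocyte markers, 1 was higher and 4 lower in WD-fed males, and their sum was 82084 to 106313 CPM in males on CD and 54753 to 84257 CPM in males on WD. Of the adipocyte list, 1 of 5 genes tested was higher in WD-fed males in the mean. The list had 2 of 2 higher in WT males (Car3 and Cfd, 6.93% of all genes) and 1 of 2 in KO males (Cfd, 1.64% of all genes). Its 6 markers summed to 1304 to 1985 CPM in WT males on CD and 2240 to 3364 CPM on WD, without overlap, and to 1251 to 2717 and 1019 to 2544 CPM in KO males. Nearly all of this was Car3, a carbonic anhydrase also made by hepatocytes, at 1302 to 1985 CPM in WT males on CD and 2233 to 3327 CPM on WD. Cfd, complement factor D, was at 0 to 1.497 CPM in males on CD, and at 7.46 to 26.3 CPM in WT and 18.4 to 96.1 CPM in KO males on WD. The 4 other markers, Adipoq, Plin1, Retn and Lep, summed to at most 2.08 CPM in males on CD, and on WD to 0 to 10.6 CPM in WT and 0 to 0.253 CPM in KO males. Kupffer, stellate, cholangiocyte, endothelial and lymphocyte markers gave 1, 0, 0, 0 and 1 called there. The part of cell composition in the diet effect was not tested.

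Within groups, most pairs of members were positively correlated from liver to liver. Over the 465 pairs of members, the correlation of their deviations from the group means was above 0 in 399 and had a median of 0.36. This is a description over 32 livers, and all genes of a liver share its library size and depth. The same was not computed for pairs of other genes, so it is not shown to be particular to the pathway. Eci1, Hadhb, Slc25a20 and Hadha had the highest medians with the other 30, 0.62, 0.62, 0.60 and 0.60. Pcca (−0.03), Acad9 (0.03), Echs1 (0.08), Ppargc1a (0.10) and Pdk4 (0.11) stood apart. The SD of log2(CPM + 0.5) within groups had a median of 0.204 over the 31, against 0.222 over all genes tested, with 11 members above the latter. Pdk4 (0.716), Slc25a47 (0.449), Slc22a5 (0.427), Crat (0.388) and Cpt1a (0.346) were the most variable and Etfa (0.106) the least.

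Correlation was tested for 3 pairs, each against no correlation, while most members correlate with one another. The median r with the other 30 members was 0.60 for Hadha, 0.62 for Hadhb, 0.42 for Etfa and 0.51 for Etfdh. It was 0.39 for Cpt1a and 0.11 for Pdk4. Whether a pair goes together more than other members do was not tested. Hadha and Hadhb, which share the 85-base gap printed above, went together, with r = 0.815 and rho = 0.744 over 32 livers (each adjusted permutation p = 3.0e-05, from an unadjusted permutation p of 1.0e-05, the smallest that 100000 permutations can give). Without the 2 livers farthest from the median of Hadha, WT females on CD replicates 3 and 4, r was 0.73. It was 0.76 in the 16 males and 0.84 in the 16 females. Etfa and Etfdh, successive electron carriers, had r = 0.554 and rho = 0.547 (adjusted permutation p = 0.00181 and 0.00211), with r = 0.485 without the 2 farthest livers. In males r was 0.72 (adjusted permutation p = 0.00282), and 0.40 without KO on WD replicates 1 and 2, the 2 farthest. In females r was 0.44 (adjusted permutation p = 0.132), and 0.31 without KO on CD replicate 1 and KO on WD replicate 3. Cpt1a and Pdk4, both known to rise in fasting, showed no correlation that passed (r = −0.122, rho = −0.137, adjusted permutation p = 0.51 and 0.455).

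**Figure D4:**
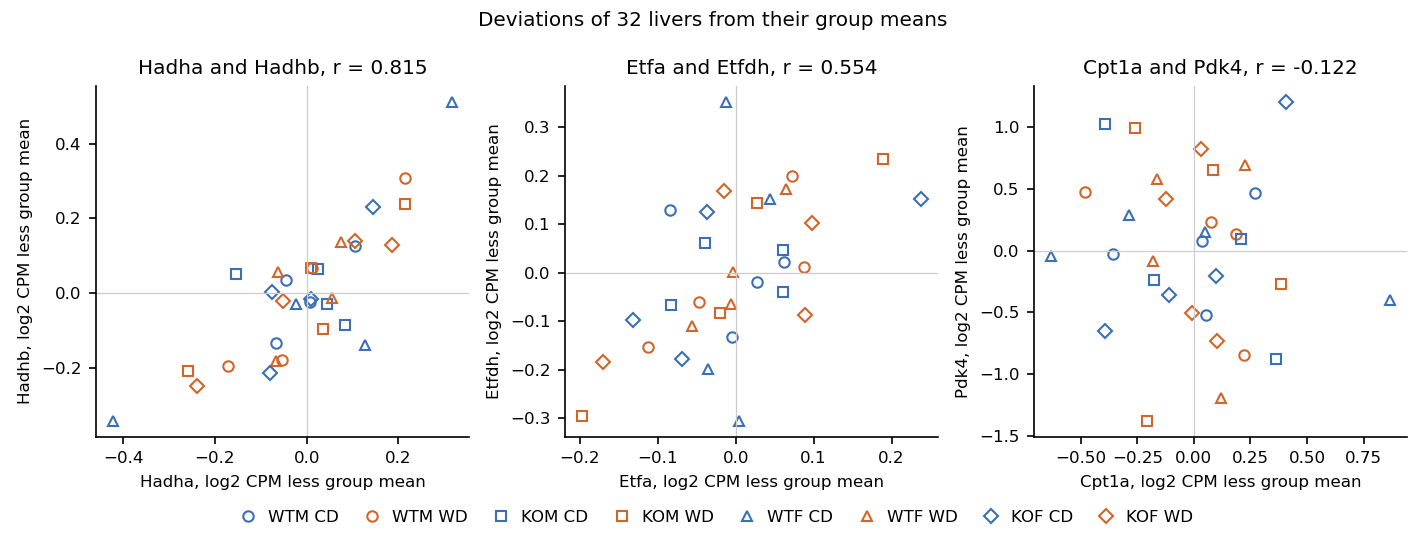
Deviation of each of the 32 livers from its group mean, in log2 CPM, for Hadha and Hadhb, Etfa and Etfdh, and Cpt1a and Pdk4; symbols are WT males (WTM), Nudt7-/- males (KOM), WT females (WTF) and Nudt7-/- females (KOF), blue on CD and orange on WD. The points follow a rising line for Hadha and Hadhb (r = 0.815), a looser one for Etfa and Etfdh (r = 0.554) and none for Cpt1a and Pdk4 (r = −0.122).

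The comparison of genotypes asks whether loss of NUDT7 changed the pathway's transcripts. No member of 31 passed in any of the 4 comparisons of KO with WT, males on CD (0.00814% of all genes called), males on WD (0.0162%), females on CD (0.0314%) and females on WD (0.0156%), nor in the mean over both sexes and diets (0.0886%) by edgeR. At an unadjusted p under 0.05 there were 4, 4, 2, 1 and 2 of 31 in these 5 comparisons, against 9.74%, 9.69%, 6.87%, 7.65% and 9.09% of all genes. Of the 4 comparisons of single groups, only that of females on CD called Nudt7 itself, which limits what 0 members called can show. DESeq2 with length offsets called 0, 0, 0, 1 and 0 members in the same 5 comparisons, the 1 being Crat, lower in KO females on WD. In females on CD the direction of the members depended on the livers with acinar transcripts. With all 8 livers 14 of 31 differences were above 0, with a median of −0.03, against 52.4% of all genes above 0. Without those livers 29 of 31 were, with a median of 0.12, against 51.3% of all genes (0 members called, 1 at an unadjusted p under 0.05). The median over all genes was 0.01 without the livers with muscle transcripts. Without the livers with muscle transcripts 26 of 31 were above 0, with a median of 0.21 (0 called, 0 at an unadjusted p under 0.05), from 1 liver per group. For 25 members the interval of 2 SE around the mean difference reached at most 0.266 from 0 on the log2 scale, and those of Crat, Pdk4, Slc22a5, Cpt1a, Ppargc1a and Slc25a47 reached farther. The mean difference was above 0 in 6 of 31 members, with a median of −0.04, against 51.0% of all genes above 0. Without the livers with acinar transcripts it was above 0 in 14, with a median of −0.02. In the mean with all livers, Cpt1a gave 0.28 (interval 0.055 to 0.51, adjusted p = 0.459), Ppargc1a 0.25 (interval 0.034 to 0.462, adjusted p = 0.502), Slc25a47 0.30 (interval −0.017 to 0.622, adjusted p = 0.58) and Crat −0.23 (interval −0.500 to 0.034, adjusted p = 0.61).

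The member with the smallest p in any genotype comparison was Crat in females on WD. It was 87.0, 95.1, 83.8 and 66.8 CPM in WT and 53.7, 61.8, 44.1 and 63.6 CPM in KO livers, without overlap (−0.57, SE 0.132, unadjusted p = 0.00112, adjusted p = 0.316 by edgeR). DESeq2 with length offsets called Crat lower in this comparison. In females on CD the ranges overlapped, at 39.8 to 79.3 CPM in WT and 37.2 to 77.4 CPM in KO. Slc25a47 in females on CD was 173, 167, 224 and 174 CPM in WT, and 740, 258, 162 and 226 CPM in KO livers, where KO on CD replicate 1 alone stood above all other livers of the series. Mlycd is the member nearest to Nudt7, on chromosome 8 at 5.26 Mb from it, and the only one within 20 Mb. Its KO against WT differences were −0.15 and 0.05 in males on CD and WD, and 0.13 and −0.04 in females, none past the test.

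**Figure D5:**
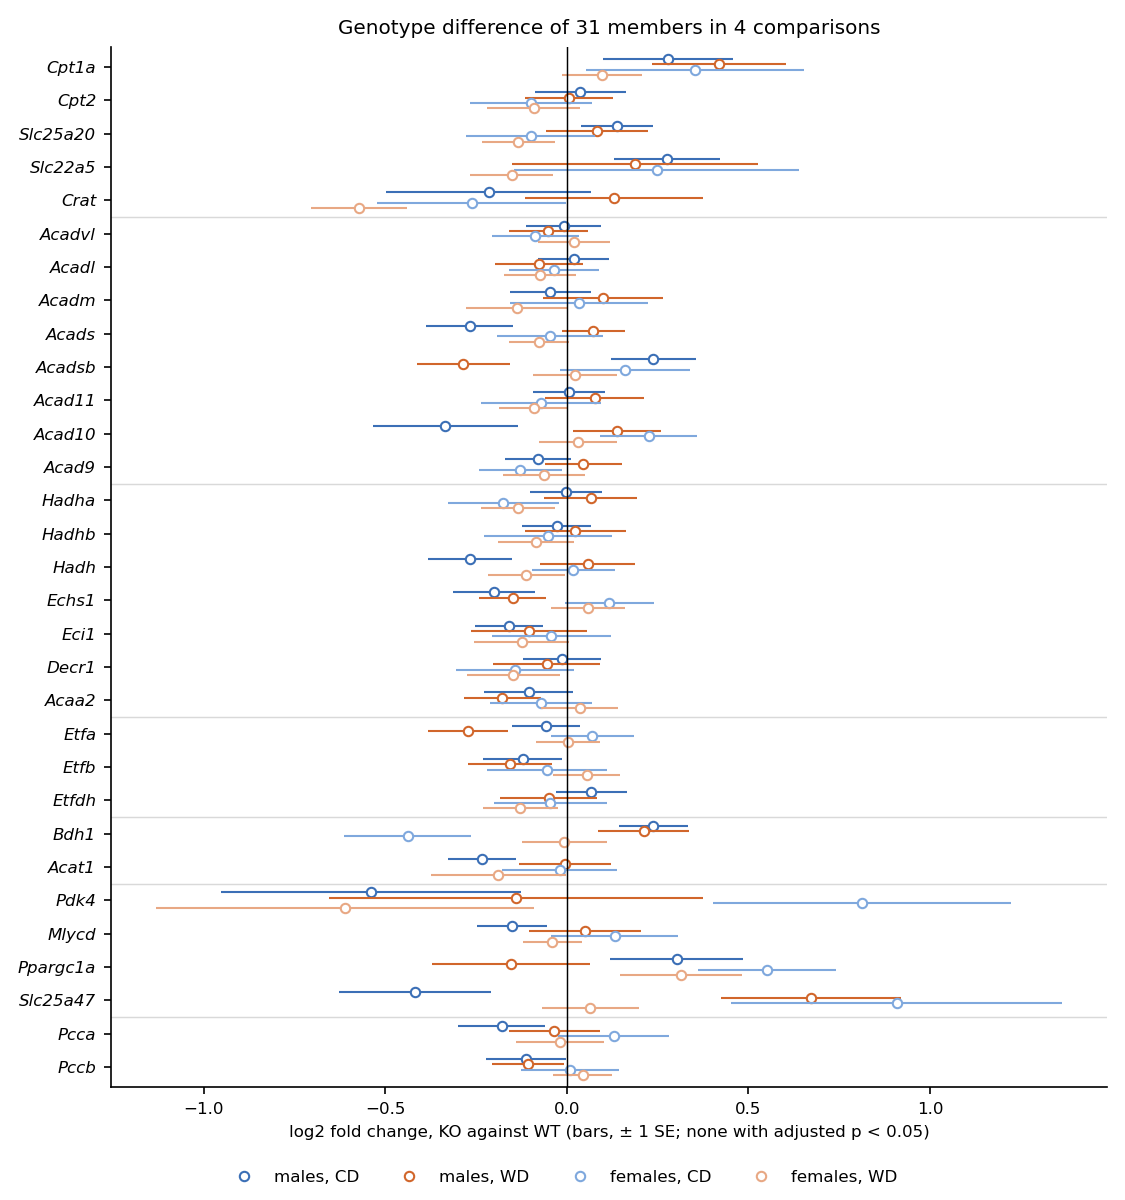
Log2 fold change of KO against WT for the 31 genes (rows, grouped by role) in males on CD, males on WD, females on CD and females on WD (4 colours); bars are ± 1 SE and open points did not pass an adjusted p of 0.05. No point is filled, and Slc25a47, Pdk4, Crat and Ppargc1a reach farthest from 0, up to 0.91 for Slc25a47 in females on CD.

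Between the sexes few members were called. On CD, no member was called in WT mice (2.24% of all genes called; 4 members and 15% of genes at an unadjusted p under 0.05 by edgeR; 3 members by DESeq2) or in KO mice (6.66% called; 5 members and 21.9% of genes at an unadjusted p under 0.05; 2 members by DESeq2). Without the livers with acinar transcripts and, separately, those with muscle transcripts no member was called on CD in WT or KO mice. In WT mice on CD 17 of 31 female against male differences were above 0 with all livers (median 0.02), 10 without the former (median −0.07) and 6 without the latter (median −0.18), and in KO mice 19, 25 and 20. Of all genes, 50.5% were above 0 in WT mice with all livers and 50.7% without the livers with acinar transcripts. In KO mice these shares were 51.8% and 51.3%. Without the livers with muscle transcripts the median over all genes was −0.01 in WT and −0.005 in KO mice. On WD, 2 were called in WT mice (9.64% of all genes) and 1 in KO mice (9.66%) by edgeR. At an unadjusted p under 0.05 there were 7 in WT and 10 in KO mice, against 26.4% and 25.9% of all genes. Female against male differences were above 0 in 10 of 31 members in each genotype, against 52.9% and 49.9% of all genes in WT and KO. The medians of the members were −0.09 in WT and −0.18 in KO mice. DESeq2 with length offsets called 4 in WT mice, 2 of them lower in females, and 5 in KO mice, all lower in females. Crat was higher in WT females on WD, at 66.8 to 95.1 CPM, than in WT males on WD, at 30.03 to 56.2 CPM (0.99, SE 0.196, adjusted p = 0.014), a call lost with the replicate number as a block (1.01, SE 0.229, adjusted p = 0.0538). The same difference was 0.92 in WT (adjusted p = 0.21) and 0.87 in KO mice on CD (adjusted p = 0.0549). Acadsb was lower in WT females on WD, at 87.5 to 132 CPM against 151 to 182 CPM in males (−0.65, SE 0.119, adjusted p = 0.0069). Slc25a47 was lower in KO females on WD, at 203 to 237 CPM against 313 to 528 CPM in KO males (−0.77, SE 0.163, adjusted p = 0.0133), a call lost without KO females on WD replicate 3 (adjusted p = 0.0564) and in the model of all 32 livers (adjusted p = 0.136). The WT count on WD rose to 5 without WT females on WD replicate 4, one of the livers with acinar transcripts. The KO count on WD rose to 5 without KO males on WD replicate 1, to 2 without KO females on WD replicate 4, and fell to 0 without KO females on WD replicate 3. On CD the counts rose to 1 without WT males replicate 1, KO males replicate 2 or KO females replicate 2.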

How the data were processed

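RNA from 32 mouse livers had been sequenced by the authors as 50-base paired-end reads on an Illumina sequencer from KAPA mRNA HyperPrep libraries and quantified with Salmon 1.3.0. For each transcript the deposited files hold an estimated count, not normalised, and the authors' TPM value, normalised for length and library. Counts were summed over the transcripts of each gene (GENCODE vM21, GRCm38; 115973 of 117135 transcripts matched) and rounded. The edgeR 4.0.16 quasi-likelihood test with TMM factors was run on each pair of groups (8 livers), and on 1 model of 32 livers for mean effects and differences of effects, keeping genes that reached 10 counts in 4 or more livers. P-values were adjusted over all genes tested (Benjamini-Hochberg, 0.05). The standard error was taken as the log2 fold change over the root of F. CPM used TMM factors of all 32 livers. Correlations were permuted 100000 times (two-sided). On counts simulated for WT males, 35.8% of 1.5-fold and 80.3% of 2-fold changes were recovered, with 4.76% false calls. The simulation used the library sizes of the 8 WT male livers, which had 10140048 to 14089282 total counts. Alternatives were DESeq2 1.42.0 and edgeR with length offsets, RLE factors, no filter, a replicate block, a length trend correction, left-out livers, and fits without livers with acinar or, chosen after seeing the data, muscle transcripts. The members and gene lists were chosen with earlier results of these data known. All members were to be named, with statistics for those passing the test or, where few passed, up to 4 with the smallest p, and up to 6 passing genes of the rest of the pathway.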

Additional observations from a re-analysis of the deposited data

Results flagged for a closer look

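Each member was looked at in each of the 8 groups for a liver far from the other 3, its gap to the nearest, as a share of the group's range, being over Dixon's critical value. This held in 19 of 248 cases, where chance alone gives about 1 in 20. KO females on CD replicate 1 gave 3 of them, all high: Slc25a47 at 740 CPM (others 162 to 258), Pdk4 at 167.3 CPM (others 46.3 to 63.1) and Mlycd at 84.77 CPM (others 51.9 to 56.5). KO males on CD replicate 2 also gave 3, all high: Acads at 119.5 CPM (others 87.3 to 90.6), Eci1 at 74.21 CPM (others 62.1 to 63.8) and Etfb at 243.2 CPM (others 189 to 197).

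Slc25a47 had 1 high liver in 3 further groups, at 365.5 CPM in WT males on WD replicate 2, 527.8 CPM in KO males on WD replicate 4 and 224.4 CPM in WT females on CD replicate 3. Ppargc1a had 1 low liver in each group of females on CD, 9.121 CPM in WT replicate 2 and 13.41 CPM in KO replicate 3, and both livers were among those with acinar transcripts. Other high livers were Slc22a5 at 33.35 CPM in WT females on CD replicate 4, Crat at 55.11 CPM in WT males on CD replicate 1, Acat1 at 545.8 CPM in WT females on WD replicate 2 and Pcca at 107.9 CPM in KO males on WD replicate 2. Other low livers were Acadvl at 262.1 CPM in KO females on WD replicate 3, Acad10 at 15.49 CPM and Acad9 at 31.4 CPM in KO males on CD replicates 4 and 3, and Pccb at 158.5 CPM in WT males on WD replicate 4.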

How the results depend on the processing

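The mean male diet effect called 13 to 16 of 31 members with 1 liver left out and 14 to 17 under the other settings, and the mean female effect 1 to 2 with 1 liver left out (2 by DESeq2 with length offsets, 1 under the others). The members' median in males was 0.29 to 0.34 over the settings, and that of all genes moved by under 0.01. No gene called turned direction under any alternative; of 702 single-gene values, 559 kept the call and 143 lost it. Replicate numbers are shared by the groups. Over all groups, deviations of livers of the same number had a mean correlation of 0.007, and those of other numbers −0.002. Single comparisons differed: pairs of the same number ran from 0.03 to 0.34 between genotypes of females on WD. They ran from 0.02 to 0.32 between sexes of WT on WD. In every other comparison the lowest such pair was below 0. The labels do not say what the number stands for, so the replicate block is given as an alternative. With the block, WT males called 4 members, KO females 0 and the sex comparison of WT on WD 4, of which 1 (Acadsb) was called without it.

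In WT males on WD against CD the count was 4 to 12 with 1 liver left out and 5 with length offsets in edgeR. Without livers with muscle transcripts, in the model of all groups and chosen after seeing the data, it was 3, and in KO females 0. In KO males it was 0 to 5, and 13 by DESeq2 with length offsets. In KO females it was 0 to 1, and 2 by DESeq2 (Bdh1, higher, and Pdk4, lower). By DESeq2 the genotype comparison of females on WD called 1 member (Crat, lower in KO). The sex comparisons called 3 (WT on CD), 2 (KO on CD), 4 (WT on WD) and 5 (KO on WD) by DESeq2. Between the sexes, WT on CD gave 0 to 1 with 1 liver left out, 1 with the length trend removed and 1 in the model of all livers. KO on CD gave 0 to 1, 1 with edgeR length offsets, 1 with the trend removed and 2 in the model of all livers. WT on WD gave 2 to 5, and 5 without acinar livers. KO on WD gave 0 to 5, 3 without the filter, 3 with the trend removed and 0 in the model of all livers. All other left-out counts were 0. Etfa with Etfdh fell to r = 0.44 in females alone, and Cpt1a with Pdk4 was 0.064 there. The causes were not tested. The simulation recovered 15.4% of 1.5-fold changes in WT females and 44.8% between genotypes of males on CD. It planted more changed genes than the 10 and 1 called in the real comparisons, which makes the adjusted threshold easier to reach. These shares can therefore overstate what the real tests could find. Nudt7 itself, at −1.77 in males on CD, did not pass by edgeR (adjusted p = 0.495). Both limit what a call of 0 can show.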
